A study of Homo sapiens with 60 samples.

Results

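The subunits of the oxidative phosphorylation machinery were followed in HepG2, an established cell line from a human liver cancer, after 24 h with herbal extracts. The members were 51 listed gene symbols, of 60675 gene rows in the count table, and comprised the 13 protein-coding genes of the mitochondrial genome and 38 nuclear genes. All 51 passed the filter on low counts that left 16692 genes for testing. The nuclear members held 13 subunits of complex I, 4 of complex II, 6 of complex III, 9 of complex IV and 6 of complex V. The list is a selection, and 40 further subunit genes were kept apart as another list.

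The extracts were made with 70% ethanol. They came from Astragali Radix (Astragalus), Paeoniae Radix (Paeonia), Angelicae Gigantis Radix (Angelica), Cinnamomi Cortex (Cinnamon), Rehmanniae Radix Preparata (Rehmannia) and Cnidii Rhizoma (Cnidium), and from the formulas Sagunja-tang and Samul-tang. Each was given at 500, 100 and 20 µg/mL. There were 60 libraries in 25 groups, of which vehicle had 3 libraries. Astragalus, Cinnamon, Cnidium and Rehmannia had 3 at each dose, Sagunja-tang, Angelica and Paeonia had 2, and Samul-tang had 1. The labels give 0.1% DMSO for the vehicle and the series text gives 2%. The series text also speaks of lower doses for extracts that inhibited growth, whereas the labels give the same 3 doses throughout. Nothing in the labels says whether replicates came from separate cultures, so p-values measure the spread between these libraries, which may be technical.

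Library totals ran from 21485882 to 34643028 expected counts. The liver markers ALB and AFP stood at medians of 10550 and 13820 CPM (counts scaled to library size) over the 60 libraries. Marker levels in CPM are without TMM factors, whereas the CPM of the members include them. Of 10 markers of other cell types 5 were too low to be tested. Among these were PTPRC of leukocytes (0 in all 60 libraries) and CD3E of T cells (0 in 59). The other 5 were above 0 in all libraries, with medians of 62.5 CPM for ACTA2, 3.22 for CD14, 1.73 for PECAM1, 0.679 for VWF and 0.322 for COL1A1. Sample descriptions carry 5 code prefixes whose meaning is not stated. The vehicle has its own prefix, so that the vehicle and its prefix cannot be told apart. The preparations share prefixes in pairs: Angelica with Paeonia, Cnidium with Rehmannia, Astragalus with Cinnamon, and Sagunja-tang with Samul-tang. Differences between extracts of different pairs cannot be told apart from the prefix. All comparisons with vehicle share the same 3 vehicle libraries. RN7SL2, an RNA of the signal recognition particle, fell by 1.71 ± 0.25 (log2 ± SE) against vehicle in the mean of the extracts at 20 µg/mL, its near copy RN7SL1 also fell, and their part in the differences from vehicle below was not tested.

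Oxidative phosphorylation passes electrons from NADH and succinate through complexes I to IV to oxygen, and complex V uses the resulting proton gradient to make ATP. Complexes I, III, IV and V combine subunits encoded in the mitochondrial genome, which form much of the catalytic membrane core, with nuclear-encoded subunits imported from the cytosol, whereas complex II is entirely nuclear. The mitochondrial genes are transcribed as long polycistronic RNAs from both strands and cut mainly at the tRNAs that separate them, and nuclear subunit genes are commonly regulated through factors such as NRF1 and the ETS protein GABPA. Hepatocytes use this machinery in energy-consuming synthesis. The values here are RNA levels in a cell line, and respiration and ATP were not measured in them.

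Of the mitochondrially encoded members, 12 lie on one strand and MT-ND6, a complex I subunit, lies on the other. MT-ATP8 and MT-ATP6, subunits of the membrane part of complex V, share 46 bases, and MT-ND4L and MT-ND4 of complex I share 7. The sequences below show these overlaps, because both shorter partners recur in the results. Reads of 100 bp are longer than either shared stretch. How counting treated reads that reach into one was not tested. They are from the GENCODE 29 transcripts, 5′ to 3′, with the stretch shared with the next gene in capitals. The first is the whole of MT-ATP8 (chrM:8366-8572, plus strand, 207 bases) and the second is the last 60 of the 297 bases of MT-ND4L (chrM:10707-10766, plus strand).
MT-ATP8: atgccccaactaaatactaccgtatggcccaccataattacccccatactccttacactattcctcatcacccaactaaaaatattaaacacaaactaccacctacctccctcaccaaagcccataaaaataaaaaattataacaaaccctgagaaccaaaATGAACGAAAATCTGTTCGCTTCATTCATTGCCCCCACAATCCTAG
MT-ND4L: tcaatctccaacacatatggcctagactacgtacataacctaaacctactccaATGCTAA

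In vehicle, per kilobase of transcript, the mitochondrially encoded members had a median level of 7842 CPM per kb and the nuclear members one of 91.3 CPM per kb. Length was the median over the annotated protein-coding transcripts of a gene, short ones included. It was 586 bases for UQCRC2 and 3475 for UQCRFS1, both of complex III, so nuclear levels per kb and their order are rough. MT-CO3, a core subunit of complex IV, was the highest at 18150 ± 240 (SD, n = 3) CPM per kb, and MT-ND6 was the lowest of the 13 at 1199 ± 97.9. Among the nuclear members ATP5F1B, the catalytic beta subunit of complex V, was the highest at 650 ± 6.19 CPM per kb, and NDUFS7, an iron-sulfur subunit of complex I, was the lowest at 22.9 ± 2.01. The ranges of the classes did not overlap. SDHA, the flavoprotein of complex II, is uncertain, since its named copies held counts equal to 73.4% of its own. For MT-ATP6 that figure was 16.7% and for MT-ND2 it was 3.53%. Of the nuclear members 21 overlap an annotated gene on the other strand and 11 one on the same strand, and whether counting used the strand is not given in the sources used here, so their counts could hold reads of those genes.

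The 13 mitochondrially encoded members together took 10.4%, 10.5% and 12.0% of the counts in the vehicle libraries. In Astragalus at 500 µg/mL they took 19.6%, 18.1% and 19.0%, in Angelica 17.2% and 15.6%, and in Paeonia 16.0% and 13.8%. In bulk samples fewer cells of a kind and less RNA per cell cannot be told apart. All of these libraries lay above all vehicle libraries, as did 42 of the 54 libraries of the 7 replicated extracts over all doses, while 3 lay below. The 38 nuclear members took 0.422% to 0.451% in vehicle, and 50 of the 54 extract libraries lay below that range. Replicates could differ widely, as in Rehmannia at 20 µg/mL, where the mitochondrially encoded share was 8.92%, 15.2% and 13.5%. Shares and TMM-scaled levels need not move alike, because the scaling factors were 1.06 to 1.08 in vehicle and 0.784 to 0.851 in Astragalus at 500 µg/mL. There the nuclear share was 0.409% ± 0.0298 (SD, n = 3) against 0.438% ± 0.0147 in vehicle, while the summed scaled level was 4994 ± 381 CPM against 4093 ± 97.0.

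**Figure D1:**
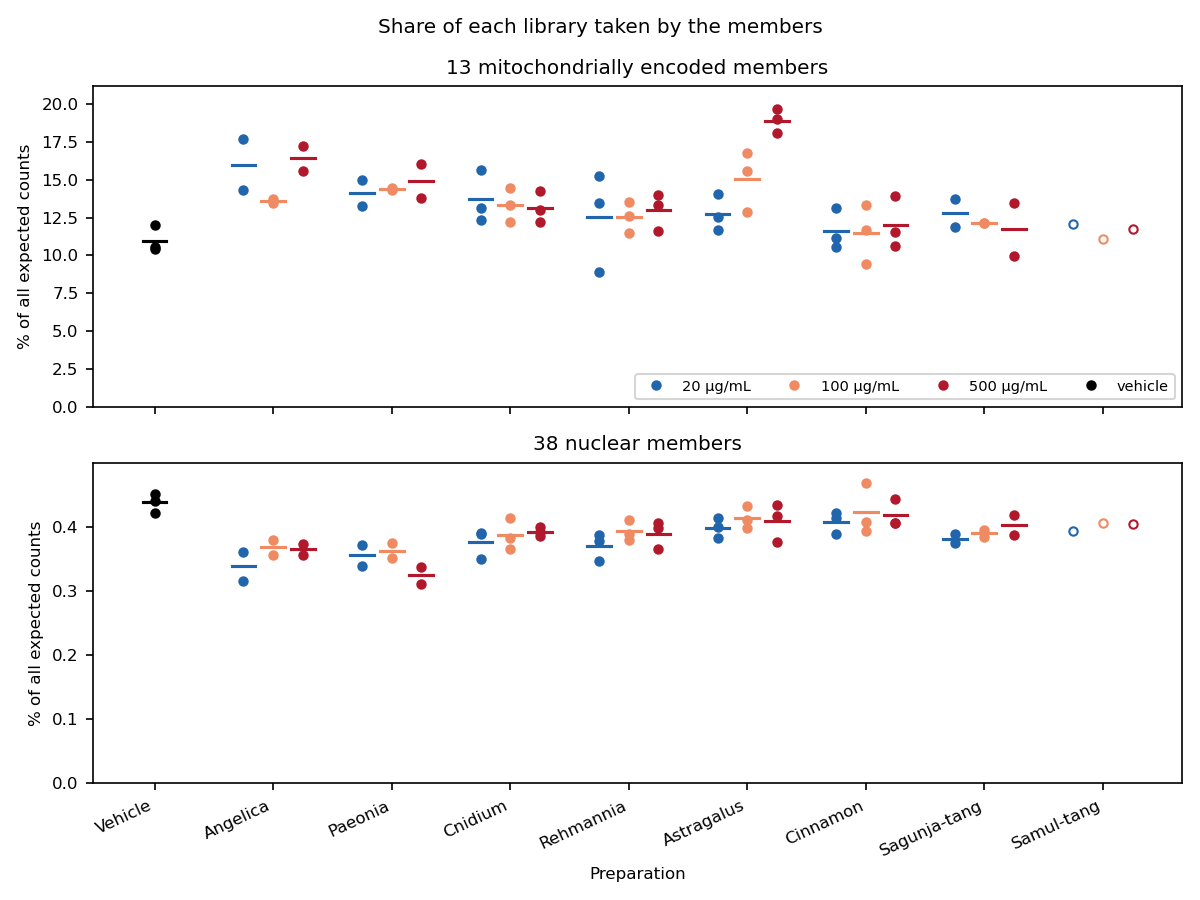
Percent of all expected counts taken by the 13 mitochondrially encoded (top) and 38 nuclear members (bottom), 1 point per library, by preparation and dose, with a bar at the mean of groups of 2 or 3 and open points for Samul-tang. The mitochondrially encoded share is highest in Astragalus at 500 µg/mL, at 18.1% to 19.6%, and 50 of 54 extract libraries lie below vehicle for the nuclear share.

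Summed over the 7 extracts, calls at the lower doses were rises among the mitochondrially encoded members and mostly falls among the nuclear ones. The extracts did not contribute evenly. At 20 µg/mL most of the mitochondrial rises were in Angelica, and Astragalus and Cinnamon had few nuclear calls. Astragalus and Cinnamon share a code prefix, so extract and prefix cannot be told apart here. Differences are log2 values with their SE, taken from 1 quasi-likelihood fit of the 60 libraries in edgeR, and n counts the libraries of the extract against those of the reference. A gene is said to rise or fall where its adjusted p was under 0.05. Summed over the 7 extracts at 20 µg/mL, the 13 mitochondrial genes gave 91 tests, of which 17 rose and 0 fell, and the 38 nuclear genes gave 266, of which 11 rose and 93 fell. Of all genes 8.78% rose and 8.72% fell in these comparisons. At 500 µg/mL 40 of 91 mitochondrial tests rose and 1 fell, and 40 of 266 nuclear tests rose and 55 fell, with 16.6% and 16.2% for all genes. At 100 µg/mL the mitochondrial counts were 16 and 0 and the nuclear ones 24 and 66, with 9.54% and 9.45% for all genes. The count of 17 at 20 µg/mL was 5 without Angelica replicate 3 and that of 16 at 100 µg/mL was 7 without vehicle replicate 1. The 90 nuclear calls at 100 µg/mL were 57 without vehicle replicate 2. Without any filter on low counts, 75 of the 91 mitochondrial tests rose at 20 µg/mL and 67 at 100 µg/mL. All members pass that filter, so their own counts were the same in both fits. The share of all genes called without the filter is not given here, so these numbers cannot be read as further rises particular to the members. The same holds for calls from the other alternative fits below.

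**Figure D2:**
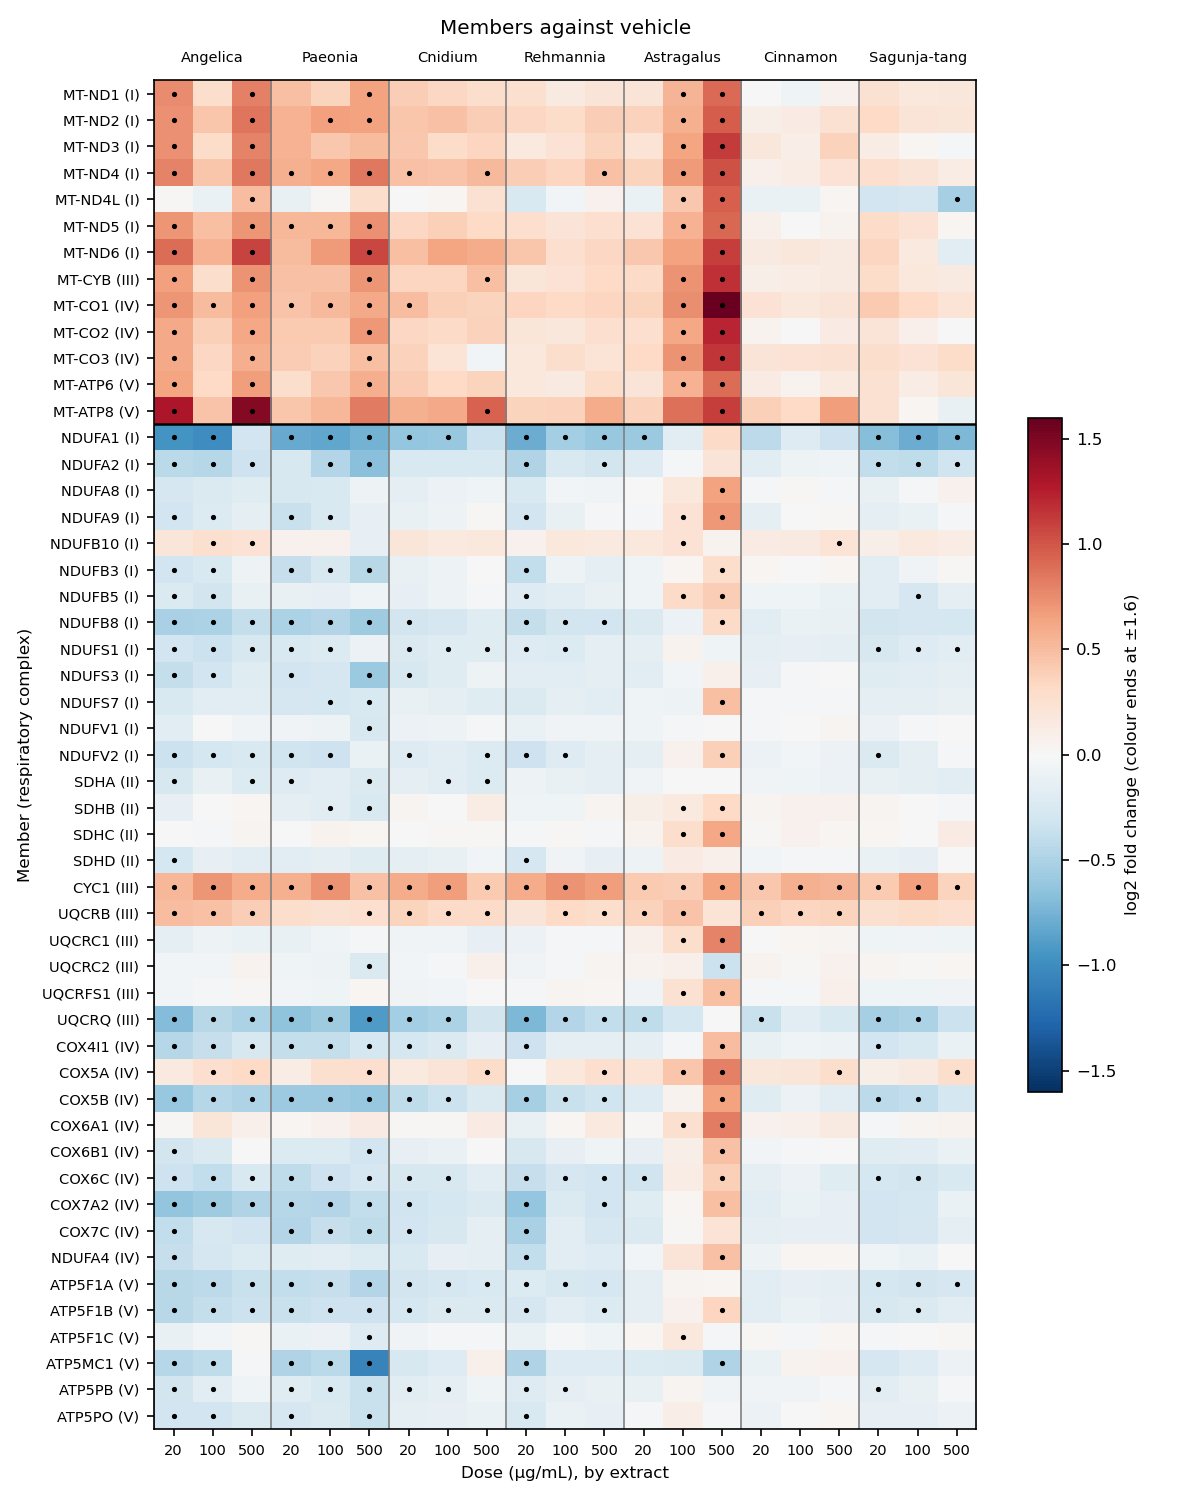
Log2 fold change against vehicle of each member (vertical axis, complex in brackets) for each extract and dose in µg/mL (horizontal axis), red higher and blue lower, with a dot where the adjusted p lay below 0.05. The 13 mitochondrially encoded members are above the black line. CYC1 carries a dot in all 21 columns, and the nuclear block turns from mostly blue at 20 µg/mL to mostly red in Astragalus at 500 µg/mL.

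In Astragalus at 500 µg/mL the mitochondrially encoded members had their highest median of the 7 extracts at that dose. All 13 rose, by 0.90 to 1.58, with a median of 1.10 against -0.05 for all tested genes, of which 33.7% rose and 36.1% fell. MT-CO1, the catalytic subunit of complex IV, stood at 19772, 19152 and 21432 CPM in vehicle and at 68837, 55484 and 56129 CPM in Astragalus. These groups lay far apart. The rise was 1.58 ± 0.15 (2.99-fold, adjusted p = 1.6e-12, n = 3 against 3), and MT-CO1 also exceeded its partners, since its log2 level above the mean of the other 12 was 2.66 ± 0.155 (SD, n = 3) in Astragalus and 2.14 ± 0.128 in vehicle. MT-ND6 on the opposite strand stood at 1378, 960 and 1709 CPM against 570, 665 and 652 in vehicle. It rose by 1.10 ± 0.27 (adjusted p = 0.00035), at the median of the 13, and its groups did not overlap.

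The dose series within Astragalus did not involve the vehicle. MT-CO1 stood at 25155, 24673 and 27333 CPM at 20 µg/mL and at 37824, 28795 and 34276 CPM at 100 µg/mL. From 20 to 500 µg/mL it rose by 1.23 ± 0.15 (adjusted p = 1.2e-09), as did 12 of the 13, all except MT-ATP8 (0.74 ± 0.37, adjusted p = 0.07), with a median of 0.74 and 34.2% of all genes rising. Against vehicle, 0 of the 13 passed the test at 20 µg/mL (7.03% of all genes rose), 11 rose at 100 µg/mL (19.5%) and 13 at 500 µg/mL. Against the mean of the other 6 extracts at 500 µg/mL, 12 of 13 were higher (37.7% of all genes were), and MT-CO1 was higher by 1.18 ± 0.11 (adjusted p = 1.5e-13, n = 3 against 15).

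In Angelica and Paeonia at 500 µg/mL, with 2 libraries each, 13 and 10 of the 13 rose. In Angelica the median was 0.72, with 11.4% of all genes rising, and in Paeonia it was 0.65, with 23.3%. MT-ATP8 stood at 2429 and 1092 CPM in Angelica and at 364, 816 and 723 CPM in vehicle. The groups did not overlap, but the libraries within each lay far apart. Its rise of 1.47 ± 0.40 (adjusted p = 0.0066, n = 2 against 3) had an adjusted p of 0.29 without Angelica replicate 2, and without that library 4 of the 13 rose. MT-ND6 stood at 1589 and 1066 CPM in Angelica, above all vehicle libraries, and rose by 1.08 ± 0.29 (adjusted p = 0.0064, and 0.15 without replicate 2). It stood at 1667 and 966 CPM in Paeonia and rose by 1.06 ± 0.29 (adjusted p = 0.0025, n = 2 against 3). Its adjusted p was 0.18 without Paeonia replicate 2, and without that library 3 of the 13 rose. Against the mean of the other 5 extracts apart from Astragalus, 5 of the 13 were higher in Paeonia (24.6% of all genes were), MT-ND6 by 0.67 ± 0.23 (adjusted p = 0.016, n = 2 against 13), and 0 were without Paeonia replicate 2.

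The dose did not order these values in Angelica. At 20 µg/mL 12 of the 13 rose against vehicle (13.7% of all genes did), at 100 µg/mL only MT-CO1 did (10.7%), and between 500 and 20 µg/mL 0 of the 13 and 0 of the 38 nuclear members passed the test, where 0.443% of all genes rose and 0.611% fell. In Paeonia 4 rose at 100 µg/mL (9.09%) and 3 at 20 µg/mL (9.76%), and 0 of the 13 passed the test between 500 and 20 µg/mL, where 8 did without a filter on low counts and 3 in a fit of Paeonia with vehicle alone.

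**Figure D3:**
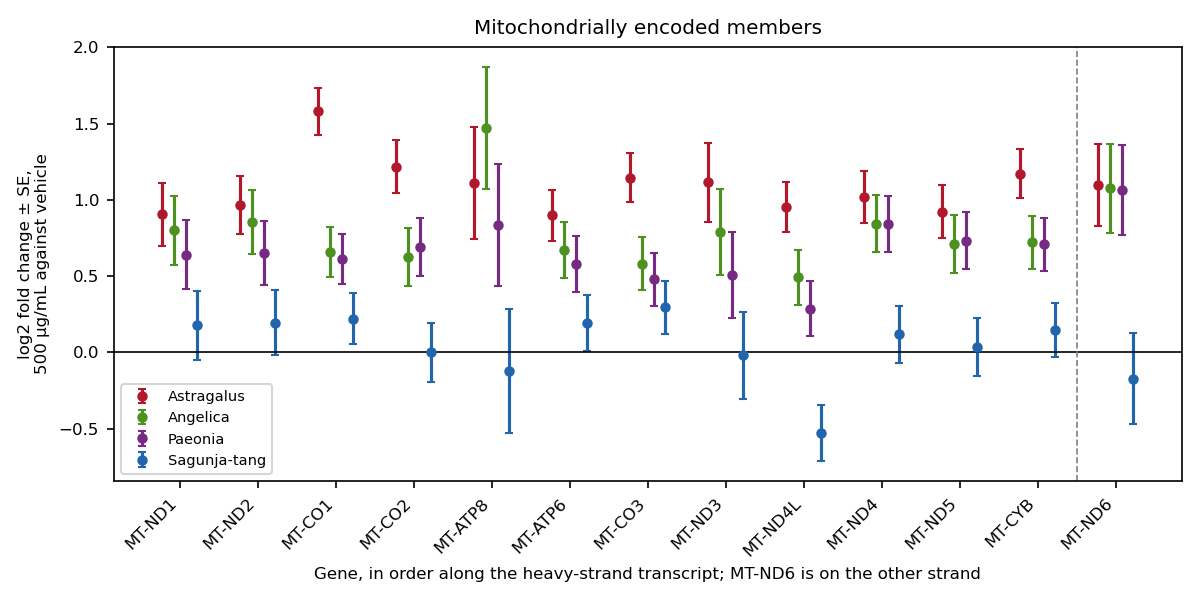
Log2 fold change ± SE at 500 µg/mL against vehicle of the 13 mitochondrially encoded members, in gene order along the strand that carries 12 of them, with MT-ND6 of the other strand at the right of the dashed line, for 4 extracts. Astragalus peaks at MT-CO1 with 1.58, Angelica at MT-ATP8 with 1.47, and Sagunja-tang falls at MT-ND4L with -0.53.

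In the remaining extracts 5 calls were made among the mitochondrially encoded members at 500 µg/mL, and their number depended on the filter: without one on low counts the calls were 12 in Cnidium, 12 in Rehmannia, 7 in Cinnamon and 6 in Sagunja-tang. In fits of 1 extract with vehicle they were 9 in Cnidium and 2 in Sagunja-tang. Shares of all genes are not given for these fits, so such counts say little about the members. In Cnidium MT-ATP8 rose by 0.95 ± 0.37 (adjusted p = 0.044), MT-ND4 by 0.52 and MT-CYB, the cytochrome b of complex III, by 0.49, so 3 of 13 with 15.8% of all genes rising. MT-ATP8 stood there at 1865, 907 and 902 CPM, and its adjusted p was 0.36 without Cnidium replicate 1. Without vehicle replicate 1 the count of 3 was 0. Rehmannia raised MT-ND4 alone, from 14872, 14454 and 18578 CPM in vehicle to 23543, 19818 and 23192 CPM, by 0.47 ± 0.17 (adjusted p = 0.039, n = 3 against 3, 10.5% of all genes rising), and its adjusted p was 0.16 without vehicle replicate 2. In Cinnamon 0 of 13 rose or fell (7.88% and 6.78% of all genes). In Sagunja-tang MT-ND4L stood at 990 and 1222 CPM against 1265, 1766 and 1753 CPM in vehicle and fell by 0.53 ± 0.19 on the log2 scale (adjusted p = 0.031, n = 2 against 3, 11.8% of all genes falling), the only fall of a mitochondrially encoded member in the 21 comparisons with vehicle. Its adjusted p was 0.28 without Sagunja-tang replicate 1, and MT-ND4, whose start it shares, stood at 14073 and 20588 CPM, a difference of 0.12 from vehicle that did not pass the test. Relative to MT-ND4, mean MT-ND4L was lower than in vehicle in every extract group, so this was not particular to Sagunja-tang. The log2 difference was -3.33 ± 0.269 (SD, n = 3) in vehicle and -3.95 in Sagunja-tang at 500 µg/mL. It ran from -3.39 in Astragalus at 500 µg/mL to -4.08 in Angelica at 20 µg/mL. MT-ND6 did not pass the test in the 4 remaining extracts, with values of 0.60 in Cnidium, 0.33 in Rehmannia, 0.14 in Cinnamon and -0.17 in Sagunja-tang. Without the filter, which leaves its own counts unchanged, the edgeR adjusted p went from 0.084 to 5.1e-23 in Cnidium and from 0.41 to 8.3e-07 in Rehmannia. Its Cnidium libraries, at 808 to 1220 CPM, lay above those of vehicle, at 570 to 665 CPM. Its Rehmannia libraries, at 583 to 1045 CPM, overlapped vehicle, so the small value there does not mean separate groups. In a fit of Cnidium with vehicle alone MT-ND6 passed (adjusted p = 0.012).

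At the lowest dose most nuclear members lay below vehicle in the mean of the 7 extracts. An effect of the extracts cannot be told apart here from the code prefix of the vehicle. In the mean of the 7 extracts at 20 µg/mL, 23 of 38 fell and 2 rose, with a median of -0.18 against -0.01 for all tested genes, of which 16.8% fell and 15.5% rose. In the same comparison 6 of the 13 mitochondrially encoded members rose with a median of 0.34, led among the called by MT-CO1 with 0.43 ± 0.12 (adjusted p = 0.0043). That 6 was 1 without vehicle replicate 1 and 10 without Rehmannia replicate 1, and 12 rose and 1 fell when no filter on low counts was used. The nuclear falls were 9 of 13 in complex I, 2 of 4 in complex II, 1 of 6 in complex III, 6 of 9 in complex IV and 5 of 6 in complex V.

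The member with the largest mean difference in each complex is described next. NDUFA1, an accessory subunit of complex I encoded on the X chromosome, stood at 22.7, 29 and 22.8 CPM in vehicle and had a median of 16.4 CPM over the 54 extract libraries of all doses. It fell by 0.70 ± 0.14 on the log2 scale (adjusted p = 0.00011, n = 18 against 3) in the mean at 20 µg/mL, and in 6 of the 7 extracts taken alone. UQCRQ, a small subunit of complex III, stood at 58.6, 59.0 and 54.6 CPM in vehicle, and 50 of the 54 extract libraries lay below that range. It fell by 0.56 ± 0.09 (adjusted p = 5.1e-06) and in all 7 extracts at 20 µg/mL, by 0.36 in Cinnamon to 0.72 in Rehmannia. COX5B, a zinc-binding subunit of complex IV, fell by 0.42 ± 0.08 (adjusted p = 7e-05) and in 5 of the 7. ATP5MC1, which encodes subunit c of the rotor ring of complex V, fell by 0.32 ± 0.08 (adjusted p = 0.0013) and in 3 of the 7. SDHD, a membrane anchor of complex II, fell by 0.15 ± 0.06 (adjusted p = 0.037) and in 2 of the 7, and its adjusted p was 0.23 without vehicle replicate 1.

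Promoters of 3 of these 5 genes are shown because they hold matches to the motifs of the factors named above. RefSeq promoter windows (GRCh38.p14, 300 bases, from 250 before to 50 after the start) were matched for 31 of the 38 nuclear members. The NRF1 core CGCATGCG, which reads the same on both strands, was found in 5 members (NDUFA8, NDUFS7, COX6A1, ATP5F1C and SDHD) and in 2.02% of all 35116 windows. The ETS motif CCGGAAGT, searched on both strands (ACTTCCGG on the other) and not overlapping the NRF1 match in SDHD, was found in 5 members (ATP5F1A, COX5B, NDUFS1, SDHD and UQCRQ) and in 4.14% of all windows. Matches are in capitals, 5′ to 3′ on the strand of the gene. UQCRQ lies at chr5:132866392-132866691, COX5B at chr2:97645812-97646111 with 2 ETS matches, and SDHD at chr11:112086623-112086922 with an NRF1 match followed by an ETS match on the opposite strand, all 3 genes on the plus strand.
UQCRQ: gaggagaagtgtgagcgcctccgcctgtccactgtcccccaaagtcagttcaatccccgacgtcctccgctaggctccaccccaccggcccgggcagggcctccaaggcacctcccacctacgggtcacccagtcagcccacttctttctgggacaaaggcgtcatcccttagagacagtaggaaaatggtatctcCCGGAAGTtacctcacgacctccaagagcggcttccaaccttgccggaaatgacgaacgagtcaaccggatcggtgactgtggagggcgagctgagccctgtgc
COX5B: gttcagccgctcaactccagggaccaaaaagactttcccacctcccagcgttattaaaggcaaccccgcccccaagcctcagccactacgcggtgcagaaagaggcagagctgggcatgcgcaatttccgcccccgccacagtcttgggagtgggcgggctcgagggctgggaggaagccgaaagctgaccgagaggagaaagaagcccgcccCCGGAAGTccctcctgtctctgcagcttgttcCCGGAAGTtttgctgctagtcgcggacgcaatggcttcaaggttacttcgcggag
SDHD: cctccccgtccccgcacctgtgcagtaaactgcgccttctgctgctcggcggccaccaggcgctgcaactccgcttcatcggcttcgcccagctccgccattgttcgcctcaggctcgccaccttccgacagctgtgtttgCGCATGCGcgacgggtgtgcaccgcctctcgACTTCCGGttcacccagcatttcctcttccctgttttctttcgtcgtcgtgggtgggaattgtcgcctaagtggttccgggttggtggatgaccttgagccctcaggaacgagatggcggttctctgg

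CYC1, the cytochrome c1 of complex III, rose against vehicle in all 7 extracts at all 3 doses. All these comparisons share the same 3 vehicle libraries, which cannot be told apart from their code prefix. The share of all tested genes that rose as often, or lay as wholly above vehicle, is not given here. It stood at 93.5, 96.0 and 96.6 CPM in vehicle and at 106 to 168 CPM, median 143, in the 54 extract libraries, all of which lay above all vehicle libraries. The 3 Samul-tang libraries, at 128 CPM at 500 and at 20 µg/mL, also lay above. The rises at 500 µg/mL ran from 0.36 ± 0.10 in Sagunja-tang (adjusted p = 0.0061) to 0.67 ± 0.09 in Rehmannia (adjusted p = 4.6e-07), those at 20 µg/mL from 0.41 to 0.59, and the mean at 20 µg/mL was 0.51 ± 0.07 (adjusted p = 7.2e-07). Sagunja-tang at 500 µg/mL had an adjusted p of 0.053 without its replicate 1. Between 500 and 20 µg/mL CYC1 passed the test only in Astragalus, at 0.22. UQCRB, another subunit of complex III, rose in 5, 5 and 4 of the 7 extracts at 500, 100 and 20 µg/mL. COX5A, a matrix-side subunit of complex IV, rose in all 7 at 500, in 2 at 100 and in 0 at 20 µg/mL.

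Nuclear members also rose in Astragalus at 500 µg/mL. In the same libraries the nuclear RNA MALAT1 rose by 2.08 and NEAT1 fell by 1.18 on the log2 scale against vehicle, and MALAT1 was higher by 2.39 than in the other 6 extracts. The part of these changes in library composition was not tested. Against vehicle 21 of 38 rose and 2 fell, with a median of 0.32, which as a count of rises was above the 33.7% of all genes. The rises were 8 of 9 in complex IV, 7 of 13 in complex I, 3 of 6 in complex III, 2 of 4 in complex II and 1 of 6 in complex V. COX6A1, a complex IV subunit, stood at 258, 236 and 206 CPM against 139, 142 and 116 CPM in vehicle and rose by 0.82 ± 0.10 (adjusted p = 1.3e-09). The core proteins of complex III went opposite ways. UQCRC1 stood at 307, 268 and 236 CPM against 157, 160 and 151 in vehicle, a rise of 0.79, while UQCRC2 stood at 228, 222 and 218 CPM against 280, 285 and 278, a fall of 0.34 on the log2 scale. Neither gene's groups overlapped. ATP5MC1 fell from 55.2, 57.2 and 58.7 CPM to 43.3, 42.0 and 37.8 CPM, by 0.48 ± 0.11 (adjusted p = 0.00011).

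The same extract compared across its own doses gave 26 rises and 2 falls among the 38 from 20 to 500 µg/mL, with a median of 0.45 against -0.02 for all tested genes, of which 34.2% rose and 35.3% fell. All 9 members of complex IV rose, by 0.44 to 0.86, whereas in complex V 1 of 6 rose. NDUFA1 stood at 16.1, 16.6 and 16.7 CPM at 20 µg/mL and at 31.7, 35.5 and 25.9 CPM at 500 µg/mL, a rise of 0.91 ± 0.18 (adjusted p = 2.7e-05). UQCRC2 fell by 0.39 ± 0.04 (adjusted p = 7.1e-13) and ATP5MC1 by 0.26. Against the mean of the other 6 extracts at 500 µg/mL, 29 were higher and 2 lower (37.7% and 37.0% of all genes). COX5B, at 117, 116 and 96.8 CPM, was higher by 1.00 ± 0.08 (adjusted p = 1.2e-15, n = 3 against 15), and UQCRC2 was lower by 0.35 ± 0.03 on the log2 scale (adjusted p = 1.8e-14). At 100 µg/mL 12 of the 38 rose against vehicle and 0 fell (19.5% and 20.0% of all genes), and at 20 µg/mL 2 rose and 3 fell (7.03% and 6.14%).

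In Paeonia at 500 µg/mL 23 of the 38 nuclear members fell and 3 rose, with a median of -0.25 and 23.0% of all genes falling. These 26 calls were 16 without Paeonia replicate 2. All 6 members of complex V fell, with 7 of 13 in complex I and 6 of 9 in complex IV. ATP5MC1 stood at 25.5 and 28.7 CPM, against 55.2 to 58.7 in vehicle and 39.5 and 41.9 at 20 µg/mL. It fell by 1.07 ± 0.12 against vehicle (adjusted p = 1.4e-09, n = 2 against 3), by 0.58 ± 0.14 against 20 µg/mL (adjusted p = 0.00082, n = 2 against 2) and by 1.03 ± 0.11 against the mean of the other 5 extracts apart from Astragalus (adjusted p = 9.6e-11, n = 2 against 13). UQCRQ fell by 0.91 against vehicle. In the comparison with those 5 extracts 16 of 38 were lower and 0 higher (22.8% and 24.6% of all genes). Between 500 and 20 µg/mL more nuclear members were called in a fit with a replicate block within extract. Without that block 3 fell and 1 rose (13.9% and 16.8% of all genes). The falls were ATP5MC1, NDUFA2 and UQCRC2, and the rise was NDUFV2, a flavoprotein subunit of complex I, from 70.6 and 72.5 to 82.0 and 84.8 CPM, by 0.22 ± 0.08 (adjusted p = 0.028). That adjusted p was 0.18 without Paeonia replicate 3 at 500 µg/mL.

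**Figure D4:**
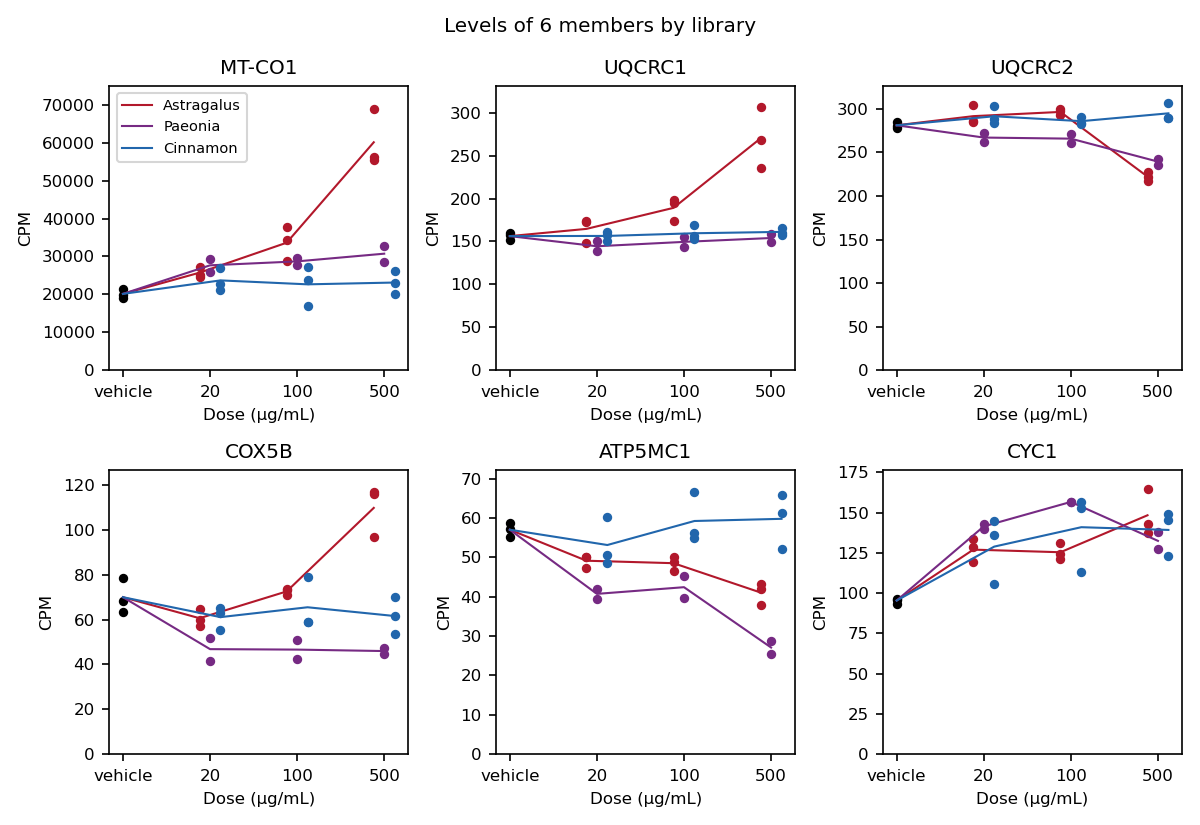
CPM of 6 members in each library (points) and group means (lines) in vehicle and at 20, 100 and 500 µg/mL of Astragalus, Paeonia and Cinnamon. MT-CO1, UQCRC1 and COX5B climb and UQCRC2 drops in Astragalus at 500 µg/mL, ATP5MC1 is lowest in Paeonia at 25.5 and 28.7 CPM, and CYC1 lies above vehicle in every extract group shown.

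In the other 5 extracts fewer nuclear members passed the test at 500 µg/mL. Angelica lowered 12 and raised 4 (10.9% and 11.4% of all genes), and UQCRQ stood at 41.3 and 39.9 CPM and fell by 0.50 ± 0.13 (adjusted p = 0.0059, n = 2 against 3). Without Angelica replicate 3 its adjusted p was 0.069 and the 16 calls became 5. Rehmannia lowered 9 and raised 3 (9.58% and 10.5%), with NDUFA1 at 14.5, 16.8 and 17.7 CPM, a fall of 0.61 ± 0.19 (adjusted p = 0.016, and 0.12 without vehicle replicate 2), and these 12 calls were 3 without its replicate 1. Cnidium lowered 5 and raised 3 (15.0% and 15.8%), with ATP5F1A, the alpha subunit of complex V, at 345, 359 and 351 CPM against 411 to 420 in vehicle, a fall of 0.24 ± 0.08 (adjusted p = 0.018, and 0.061 without Cnidium replicate 1). Sagunja-tang lowered 4 and raised 2 (11.8% and 13.8%), with NDUFA1 at 15.1 CPM in both libraries, a fall of 0.72 ± 0.21 (adjusted p = 0.01, and 0.083 without its replicate 2), and the 6 calls were 1 without its replicate 1. Cinnamon raised 4 and lowered 0 (7.88% and 6.78%), CYC1 by 0.55 ± 0.09 (adjusted p = 3.1e-05), and the 4 calls became 1 without vehicle replicate 3. With no filter on low counts the nuclear calls were 14 in Cnidium, 11 in Sagunja-tang and 7 in Cinnamon. Fits of 1 extract with vehicle gave 16 in Cnidium and 17 in Sagunja-tang. Shares of all genes are not given for these fits either.

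Within these 5 extracts the doses 500 and 20 µg/mL were seldom distinguishable for the members. A replicate block within extract gave more nuclear calls in Angelica, Rehmannia and Sagunja-tang than the values below, which come without it. Cnidium raised ATP5MC1, from 43.4, 51 and 49.4 to 65.7, 57.0 and 57.9 CPM, by 0.33 ± 0.10 (adjusted p = 0.022), and UQCRC2 by 0.12, so 2 of 38 with 9.56% of all genes rising. Without Cnidium replicate 1 at 20 µg/mL 0 of these calls was left. Rehmannia raised NDUFA9, a peripheral-arm subunit of complex I, from 30.2, 28.8 and 31.6 to 37.0, 36.3 and 37.6 CPM, by 0.29 ± 0.07 (adjusted p = 0.02, 0.785% of all genes rising), with an adjusted p of 0.1 without Rehmannia replicate 2 at 20 µg/mL. Cinnamon gave 0 calls in both classes (0.264% of all genes rose and 0.545% fell), as did Sagunja-tang (5.7% and 4.73%). For comparison, 8.83% of all genes fell in Cnidium and 0.623% in Rehmannia. At 20 µg/mL against vehicle the falls numbered 24 in Angelica, 21 in Rehmannia, 19 in Paeonia, 14 in Cnidium, 11 in Sagunja-tang, 3 in Astragalus and 1 in Cinnamon, with 13.8%, 10.1%, 10.1%, 9.18%, 6.69%, 6.14% and 5.07% of all genes falling. The nuclear rises there were 2 in Angelica, 1 in Rehmannia, 1 in Paeonia, 2 in Cnidium, 1 in Sagunja-tang, 2 in Astragalus and 2 in Cinnamon, with 13.7%, 9.78%, 9.76%, 9.08%, 6.4%, 7.03% and 5.74% of all genes rising. At 100 µg/mL the nuclear falls and rises were 19 and 4 in Angelica, 19 and 1 in Paeonia, 10 and 2 in Cnidium, 9 and 2 in Rehmannia, 9 and 1 in Sagunja-tang and 0 and 2 in Cinnamon. The shares of all genes falling at 100 µg/mL were 10.9%, 9.43%, 8.24%, 6.82%, 7.11% and 3.71% in that order, and those rising were 10.7%, 9.09%, 8.57%, 7.33%, 7.36% and 4.17%.

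Samul-tang, with 1 library per dose, has no replicate check. At 500, 100 and 20 µg/mL 24, 22 and 27 of the 38 nuclear members lay below all vehicle libraries and 6, 4 and 5 lay above. Of all tested genes 33.8%, 32.4% and 32.1% lay below and 33.8%, 31.7% and 32.9% above. For the 13 mitochondrially encoded members 5, 2 and 6 lay above. In all 3 libraries 19 nuclear members lay below, as did 16.5% of all tested genes (17.4% lay above), and MT-CO1 and MT-CO3, both of complex IV, lay above.

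The mean log2 level of the mitochondrially encoded members minus that of the nuclear members describes their balance. It was 5.84, 5.95 and 6.22 in vehicle, 7.00 and 6.83 in Angelica at 500 µg/mL, 7.12 and 6.75 in Paeonia and 6.81, 6.60 and 6.99 in Astragalus. These groups did not overlap vehicle, but that was not particular to them. Over all doses of the 7 replicated extracts 11 of 21 groups lay wholly above vehicle. Of the 54 libraries 41 lay above all vehicle libraries and 2 below. The highest group mean was 6.96, in Angelica at 20 µg/mL. In Paeonia at 500 µg/mL the classes moved apart, and in Astragalus at that dose both rose on the scaled levels. In Cinnamon at 500 µg/mL the values were 5.89, 6.15 and 6.54 and overlapped vehicle.

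Other genes of mitochondrial energy metabolism gave context from further lists. The 2 mitochondrial ribosomal RNAs, which are transcribed from the same strand as 12 of the members, rose in Astragalus at 500 µg/mL (MT-RNR1 by 2.07 ± 0.15, MT-RNR2 by 1.27 ± 0.15) and in Paeonia (by 1.32 ± 0.16 and 1.03 ± 0.16), whereas 0 of 2 passed the test in Angelica, with values of 0.11 to 0.20. Of the 40 further subunits 25 rose and 2 fell in Astragalus (median 0.32, with 33.7% and 36.1% of all genes), and 2 rose and 16 fell in Paeonia (median -0.19, with 23.3% and 23.0%). COX7A2L, which helps join complexes III and IV, rose by 0.95 in Astragalus, and ATP5ME of complex V fell by 0.80 in Paeonia on the log2 scale.

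Genes that transcribe and maintain the mitochondrial genome were a further list. Of 33 tested, 22 fell and 10 rose in Astragalus at 500 µg/mL (median -0.31), and 22 fell and 2 rose in Paeonia (median -0.27), where 36.1% and 23.0% of all genes fell and 33.7% and 23.3% rose. In some other groups most of the 13 mitochondrially encoded members rose too. The list gave 1 fall and 5 rises in Angelica at 500 µg/mL, where 10.9% of all genes fell and 11.4% rose. It gave 7 falls and 0 rises in Angelica at 20 µg/mL (13.8% and 13.7% of all genes). In Astragalus at 100 µg/mL it gave 11 and 2 (20.0% and 19.5%). TFAM, the packaging and initiation factor of the mitochondrial genome, fell by 1.16 ± 0.05 on the log2 scale in Astragalus (adjusted p = 6.1e-23), and MTERF2, a transcription termination family member, fell by 1.44. Of 9 regulators of mitochondrial biogenesis 7 fell and 1 rose in Astragalus. NRF1 fell by 0.84 and ESRRA, an orphan nuclear receptor, rose by 0.84. In Paeonia PPARGC1A, the coactivator PGC-1 alpha, rose by 1.06 and its relative PPARGC1B fell by 1.09. From 20 to 500 µg/mL, 17 of the 33 genome-expression genes rose and 0 fell in Cnidium (9.56% of all genes rose), and 13 rose and 0 fell in Sagunja-tang (5.7%), while 0 mitochondrially encoded members passed the test in either.

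Assembly factors, mitochondrial ribosomal proteins and the citric acid cycle gave 13 rises and 17 falls of 44, 18 and 6 of 32, and 6 and 5 of 13 in Astragalus at 500 µg/mL (33.7% and 36.1% of all genes). SCO2, a copper chaperone for complex IV, rose by 1.08, and LYRM7, an assembly factor of complex III, fell by 0.95 on the log2 scale. FH, the fumarase, fell by 0.84 and IDH3G, a subunit of isocitrate dehydrogenase, rose by 0.89. In Paeonia the same lists gave 1 and 24, 3 and 17, and 3 and 4 (23.3% and 23.0% of all genes). Of the 10 liver markers 4 rose and 5 fell in Astragalus (33.7% and 36.1% of all genes), with AFP at -0.99, APOB at -0.92, SERPINA1 at 0.63 and APOA1 at 0.59. In Paeonia 3 rose and 2 fell, with AFP at -0.38, TTR at 0.87 and SERPINA1 at 0.59. The summed level of 10 markers of other cell types, without TMM factors, was 80.4 to 82.5 CPM in Astragalus at 500 µg/mL. In vehicle it was 68.6 to 73.1 CPM. Most of it was ACTA2, a smooth muscle actin, which rose by 0.68 in the fit, where TMM scaling applies. VWF also rose, by 0.68, while CD14 and COL1A1 fell by 1.33 and 2.22 on the log2 scale and PECAM1 fell too. The part of these markers in the results was not tested.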

How the data were processed

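Expression in HepG2 cells was measured by directional paired-end RNA sequencing with 100 bp reads. The authors deposited expected counts per gene, made with RSEM 1.3.3 with STAR 2.7.3a, after Trim Galore 0.6.5, on GRCh38, per the submitters' processing notes. The annotation release is not given in the sources used here. Of 270 value columns 60 were used and 210, which match no sample here, were not. Symbols came from GENCODE 29 for 57055 of 60675 identifiers. Expected counts were rounded, filtered by expression over the 25 groups (16692 genes), scaled by TMM and fitted in edgeR 4.0.16 (R 4.3.3) with 1 group-means model of all 60 libraries and 35 residual degrees of freedom. The quasi-likelihood test was two-sided, with Benjamini-Hochberg adjustment over all genes in each comparison and a threshold of 0.05. SE was derived from the F statistic. The procedure was tested on simulated data. Samul-tang entered the fit but no comparison.

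Values are given for the largest called rise and fall per class and extract, for MT-ND6, and for the nuclear member of each complex with the largest mean change at 20 µg/mL. Members and lists were chosen with earlier results of these data known. Some genes outside this rule (UQCRB, COX5A, UQCRC1 and others) were named after their values were seen. Alternatives were RLE scaling, no filter on low counts, DESeq2 1.42.0, scaling without mitochondrial genes, a replicate block, fits of single extracts with vehicle, and leaving out libraries. A GC and length offset and a replicate block within extract were added after seeing the data. Promoters are from RefSeq (GRCh38.p14).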

Additional observations from a re-analysis of the deposited data

Results flagged for a closer look

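The effects of single members at 500 µg/mL were compared between extracts by a direct test in edgeR. Many of all genes were called in these comparisons, so that the counts alone say little about the members. The comparisons also cross code prefixes, so extract and prefix cannot be told apart. Against the mean of the other 6 extracts, Astragalus had 12 of 13 mitochondrially encoded and 31 of 38 nuclear members called, where 37.7% of all genes were higher and 37.0% lower, with MT-CO1 higher by 1.18, COX5B higher by 1.00 and UQCRC2 at -0.35 on the log2 scale. Against the mean of the other 5 extracts apart from Astragalus, Paeonia had 5 of 13 and 16 of 38 called, where 24.6% of all genes were higher and 22.8% lower, with MT-ND6 higher by 0.67 and ATP5MC1 at -1.03. The 5 became 0 without Paeonia replicate 2.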

How the results depend on the processing

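RLE scaling, scaling without mitochondrial genes and the replicate block left all 38 counts of called members within 1.5 times, and DESeq2 moved 1, the nuclear count for Angelica 500 against 20 µg/mL, to 2. RLE shifted the median of all genes by at most 0.0141. With no filter on low counts the mitochondrially encoded calls at 500 µg/mL against vehicle were 12 in Cnidium, 12 in Rehmannia, 7 in Cinnamon and 6 in Sagunja-tang, and the nuclear calls were 14 in Cnidium, 7 in Cinnamon and 11 in Sagunja-tang. For 500 against 20 µg/mL it gave mitochondrially encoded calls of 1 in Angelica, 8 in Paeonia, 3 in Cnidium, 3 in Rehmannia, 1 in Cinnamon and 6 in Sagunja-tang, and nuclear calls of 3 in Angelica, 4 in Cnidium and 7 in Rehmannia. It also gave mitochondrially encoded calls of 13 for the mean at 20 µg/mL, 68 summed at 100 and 77 summed at 20 µg/mL, and 12 for Paeonia against the other 5. Fits of 1 extract with vehicle gave, for 500 µg/mL against vehicle, 9 mitochondrially encoded and 16 nuclear calls in Cnidium and 2 and 17 in Sagunja-tang, and for 500 against 20 µg/mL 3 and 9 in Paeonia, 1 and 4 in Cnidium and 1 and 1 in Sagunja-tang. The GC and length offset gave 0 mitochondrially encoded calls in Sagunja-tang at 500 µg/mL, and for 500 against 20 µg/mL 1 and 7 in Paeonia, 1 and 1 in Cnidium and 0 nuclear calls in Rehmannia. The cause of these changes was not tested. Shares of all genes called are not given for these alternatives, so the counts alone say little about the members.

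Same-numbered libraries of an extract had deviations correlated at 0.14 on average, with 0.22 in Astragalus, 0.23 in Cinnamon and 0.22 in Paeonia. Libraries of other numbers stood at -0.08. That value is no separate reference, because deviations from a group mean cancel within the group and tie both values together. Same-numbered libraries of vehicle and an extract correlated at 0.0002. Between 500 and 20 µg/mL no extract with 3 replicates had every same-numbered pair above 0.1. Of the extracts with 2 replicates, Paeonia stood at 0.16, Sagunja-tang at 0.17 and Angelica at 0.07. The main fit did not take the numbers as pairs, and whether they mark pairs is not known. With the replicate block the counts in Angelica at 500 µg/mL were 11 and 15. The replicate block within extract gave, for 500 against 20 µg/mL, nuclear calls of 2 in Angelica, 8 in Paeonia, 5 in Rehmannia and 1 in Sagunja-tang, and 1 mitochondrially encoded call in Cnidium.

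Leaving out 1 library at a time (57 fits, where a lone library left in a group is assumed to vary like the other groups) gave these ranges of calls. Mitochondrially encoded members at 500 µg/mL against vehicle ranged over 4 to 13 in Angelica, 3 to 10 in Paeonia, 0 to 4 in Cnidium, 0 to 1 in Rehmannia, 12 to 13 in Astragalus, 0 to 0 in Cinnamon and 0 to 1 in Sagunja-tang. Nuclear members ranged over 5 to 14, 16 to 25, 6 to 9, 3 to 11, 22 to 26, 1 to 3 and 1 to 5 in that order. For 500 against 20 µg/mL the mitochondrially encoded range was 0 to 1 in Angelica, 11 to 13 in Astragalus and 0 to 0 in the others, and the nuclear ranges were 0 to 4 in Angelica, 3 to 5 in Paeonia, 0 to 2 in Cnidium, 0 to 5 in Rehmannia, 27 to 30 in Astragalus and 0 to 0 in Cinnamon and Sagunja-tang. The mean at 20 µg/mL gave 1 to 10 and 19 to 26, the sum at 100 µg/mL 7 to 19 and 57 to 95, and the sum at 20 µg/mL 5 to 22 and 76 to 106. Astragalus against the other 6 gave 11 to 12 and 29 to 32, and Paeonia against the other 5 gave 0 to 5 and 11 to 16. MT-ND6 at 500 µg/mL ranged over -0.14 (without Cinnamon replicate 3) to 0.33 in Cinnamon and over -0.49 to 0.081 (without Sagunja-tang replicate 1) in Sagunja-tang, and passed the test in neither.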
